A study of Mus musculus with 4 samples.

Results

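The myogenic regulatory factors and the Eya, Pax, Six4, Vgll and Sox factors that work beside them were examined in RNA that the labels give as adult mouse heart RNA. The set was given as 9 genes, Myod1, Myog, Myf5, Myf6, Six4, Eya1, Pax7, Vgll2 and Sox6. Every probe set whose only assigned symbol was 1 of these was taken, which gave 9 of 18193 genes and 19 of the 45037 probe sets of the array that are not controls. Each gene had between 1 and 4 probe sets. There were 4 arrays from adult C57BL/6J mice. The label Rhau KO (genotype CAAG-ERT2-Cre;Rhau F/F) was on 2 of them, and the label Control, for littermates of genotype Rhau F/F, on the other 2. All mice, controls included, carried the floxed Rhau alleles and received 5 successive doses of tamoxifen at 2 months of age, and hearts were taken 2 months later. In this model the floxed gene is removed only after tamoxifen activates the ERT2-Cre recombinase. Which cell types express the recombinase is not given in the sources used here. They do not say either whether replicates were separate animals, and a p-value therefore covers the spread between these samples alone, which may be technical.

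As background, MyoD (Myod1), Myf5, myogenin (Myog) and MRF4 (Myf6) are basic helix-loop-helix factors that pair with E proteins on E-box sites and switch on the skeletal muscle program. Six4 and its relatives bind MEF3 sites together with Eya coactivators and act upstream of these factors. Pax7 marks the satellite cells from which muscle regenerates. Vgll2 is a cofactor of TEAD proteins, and Sox6 represses slow fibre genes. The heart is built by other factors, among them Nkx2-5, Gata4 and Tbx5, and the myogenic regulatory factors are known for their restriction to skeletal muscle.

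Values are MAS 5.0 intensities, a linear measure of probe set brightness in arbitrary units that the authors scaled to a common level on each array. Readings under 100 are called dim here, and 51.8% to 54.0% of the probe sets of an array were dim. Since brightness depends on each probe set's own sequence, levels were compared between arrays and not between genes. Control replicate 1 stood apart, with a Pearson r of log2 intensities of 0.872 to 0.873 with the other arrays, against 0.923 to 0.926 among those. On all 3 probe sets of Rhau itself (Dhx36) the mean of the Rhau KO label exceeded that of the Control label, against the direction of a deletion, so every value is given by array label. The brightest read 568 and 537 in Rhau KO replicates 1 and 2, and 327 and 194 in Control replicates 1 and 2. In the same order the others read 627, 537, 156 and 172, and 327, 276, 253 and 149. Esr1, from whose human counterpart the ERT2 part of the recombinase is made, was dim with the Rhau KO label (5.40 and 25.5) and far above with the Control label (18036 and 19847) on its brightest probe set. Its other 2 probe sets were high in Control replicate 1 (518 and 1936) but not in Control replicate 2 (28.7 and 74.0).

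The 4 myogenic regulatory factors read highest in Control replicate 1 on each of their 5 probe sets. Myf6, the member of the family with the highest expression in adult fibres, read 34.4 and 4.45 under the Rhau KO label, against 5552 in Control replicate 1 and 34.3 in the second Control. The reading of Control replicate 1 was 161-fold above the highest of the other 3 arrays, and still 55.5-fold above 100. All 3 other arrays were dim, Control replicate 2 among them. Myod1, the determination factor kept in adult satellite cells and at low level in fibres, read 54.7, 40.4, 463 and 4.26 in Rhau KO replicates 1 and 2 and Control replicates 1 and 2, in that order. On its other probe set all 4 arrays were dim, at 4.13, 19.98, 53.0 and 24.0. Myog, the differentiation factor, read 55.0, 36.3, 309.5 and 34.0. Control replicate 1 was 5.63-fold above the highest of the other arrays, and 3.10-fold above 100. Myf5, the earliest of the 4 in the embryo and a neighbour of Myf6 in the RefSeq annotation, read 9.75, 2.50, 273 and 6.74. Control replicate 1 was thus the single array of the 4 on which any of these genes reached 100.

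**Figure D1:**
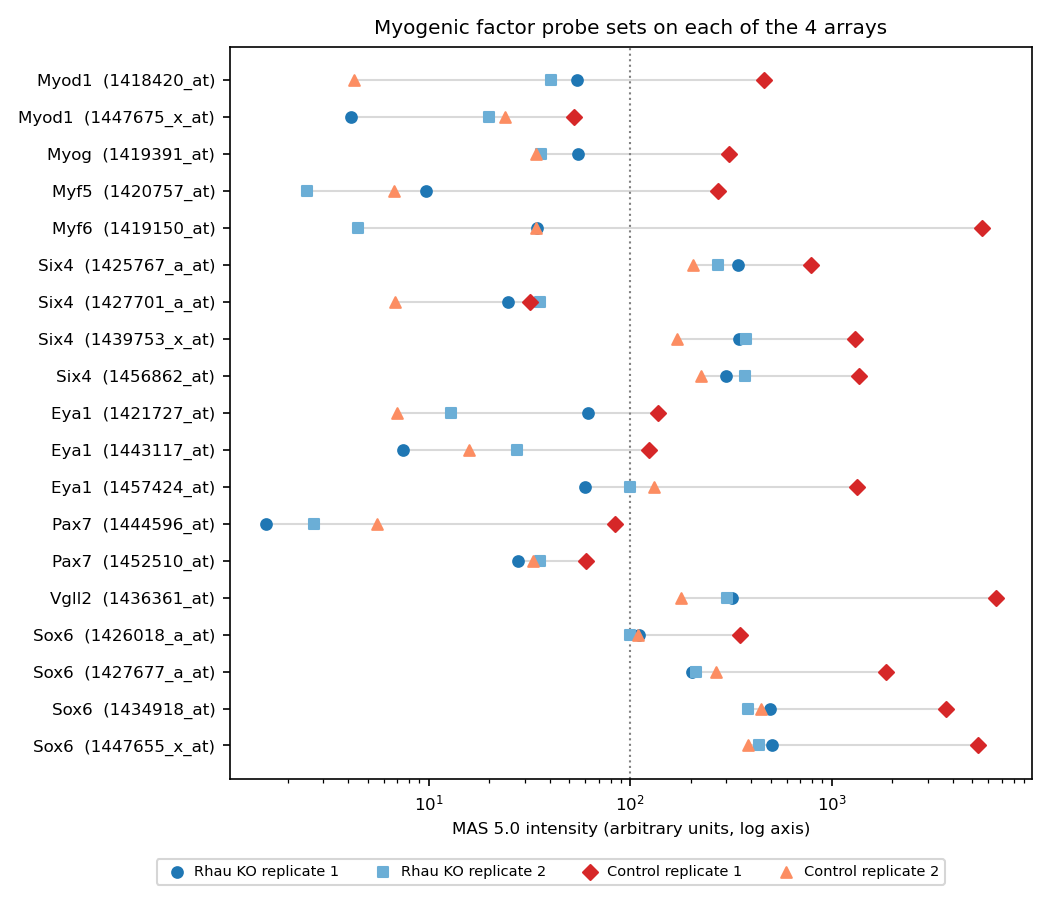
MAS 5.0 intensity (arbitrary units, log axis) of each of the 19 probe sets, 1 symbol per array, in blue for the Rhau KO label and in red and orange for the Control label. The dotted line marks 100, and grey lines join the lowest and the highest array. Control replicate 1 lies to the right of the other 3 arrays on 18 of 19 probe sets, from 6506 for Vgll2 to 53.0 for the dimmer probe set of Myod1, and the exception is a dim probe set of Six4.

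The bases before the start of Myog hold letter matches to the E-box and to the MEF3 core, and are shown together with those of Vgll2. RefSeq promoters (GRCm38.p6) were at hand for 6 of the 9 genes (not for Myod1, Myf6 and Eya1), with 12 starts in all. The 250 bases before each start were searched on both strands for the E-box CANNTG, the MEF3 core TCAGGTT bound by Six4 and its relatives and the TEAD site CATTCC, TEAD proteins being the DNA-binding partners of Vgll2. Each sequence below runs 5′ to 3′ toward the start, with matches in capitals. The window of Myog is chr1:134289754-134290003 on the plus strand, and that of Vgll2 is chr10:52022252-52022501 on the plus strand.
Myog: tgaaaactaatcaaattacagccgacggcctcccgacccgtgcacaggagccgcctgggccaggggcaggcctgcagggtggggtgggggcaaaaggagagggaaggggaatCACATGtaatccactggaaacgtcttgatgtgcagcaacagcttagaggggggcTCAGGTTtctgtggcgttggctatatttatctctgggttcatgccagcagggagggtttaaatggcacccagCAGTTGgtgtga
Vgll2: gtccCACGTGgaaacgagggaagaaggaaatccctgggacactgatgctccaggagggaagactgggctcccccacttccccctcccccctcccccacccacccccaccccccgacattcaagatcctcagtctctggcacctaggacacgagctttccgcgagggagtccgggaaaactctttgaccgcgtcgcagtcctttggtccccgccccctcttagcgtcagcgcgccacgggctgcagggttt

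In Myog the E-box matches began at positions -138 (CACATG) and -12 (CAGTTG), counted from the start, and the MEF3 core match at -84. Over all 32851 promoter windows of this length, 66.2% held an E-box, 3.49% the MEF3 core and 12.6% the TEAD site. Vgll2 held 1 E-box match and neither of the other motifs. Six4 held a MEF3 core match before the second of its 2 starts, at -97, which is after the first start, and is shown with 10 bases on each side (chr12:73113326-73113352, minus strand).
Six4: gcctgggggaAACCTGAtcggccagat

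Of the 6 starts of Sox6, every one had an E-box match within its window, 1 had a MEF3 core match and 2 a TEAD match, while the windows of Myf5 and Pax7 and the first of Six4 had none of the 3 motifs. A match is a run of letters and was not tested as a binding site. None of the windows of these genes held the E-box form CAGCTG or CAGGTG except those of Sox6, with 1 match of each, against 13.0% and 17.2% of all windows.

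**Figure D2:**
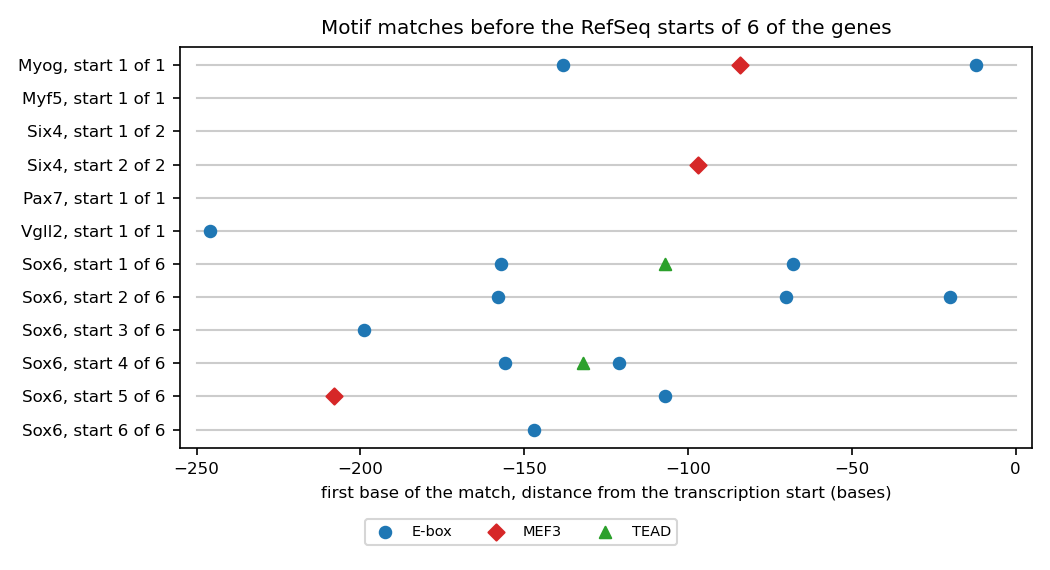
Position of the motif matches in the 250 bases before each RefSeq start of Myog, Myf5, Six4, Pax7, Vgll2 and Sox6, as the distance of the first base of the match from the start. Circles are E-boxes, diamonds MEF3 cores and triangles TEAD sites, and Myog has an E-box at -138, a MEF3 core at -84 and an E-box at -12.

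Six4 and Eya1, a homeobox factor and its coactivator, also read highest in Control replicate 1, except on 1 dim probe set. On its brightest probe set Six4 read 299 and 372 under the Rhau KO label, against 1365 in Control replicate 1 and 226 in the second Control, which put Control replicate 1 at 3.67-fold above the highest other array. Another probe set made from the same transcript record read 345, 377, 1309.5 and 170.5 in the same order, and one from a different record 344, 272, 791 and 206. The last probe set read 24.9, 35.7, 31.8 and 6.81, dim on every array. Six4 therefore read above 100 in all 4 arrays on 3 of its 4 probe sets. Eya1 read 59.4, 99.97, 1339 and 132 on its brightest probe set, and Control replicate 1 was 10.2-fold above the highest other. The other 2 probe sets of Eya1 read 137 and 125 in Control replicate 1, and no other array exceeded 61.7 on them.

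Pax7, the satellite cell factor, stayed under 100 on every array. It read 1.57, 2.71, 84.0 and 5.53 on 1 probe set and 27.6, 35.8, 60.3 and 32.8 on the other. Both were highest in Control replicate 1, by 15.2-fold and 1.68-fold over the next array, and at these levels a ratio is of little use.

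Vgll2 and Sox6 read above 100 on most arrays, and much higher in Control replicate 1. Vgll2, a cofactor of TEAD proteins, read 319 and 303 under the Rhau KO label, 6506 in Control replicate 1 and 179 in the second Control, a 20.4-fold gap to the highest other array. Sox6, a repressor of slow fibre genes, read 505, 434, 5319.6 and 383 on its brightest probe set, a 10.5-fold gap. On the other 3 probe sets of Sox6 the gap was 7.52-fold, 6.99-fold and 3.16-fold, with Control replicate 1 at 3702, 1869.9 and 349. The 3 other arrays lay within 384 to 492, 203 to 268 and 99.7 to 111 on these, so all 4 probe sets of Sox6 gave the same order between Control replicate 1 and the rest.

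Counted over all members, Control replicate 1 read over 2-fold above the highest of the other 3 arrays on 17 of 19 probe sets, and over 2-fold below the lowest on 0. Of all probe sets, 6.02% lay over 2-fold above and 10.7% over 2-fold below. The 2 that did not pass were 1 probe set each of Six4 and Pax7, dim on every array, as were 2 of those that passed. The median log2 difference of Control replicate 1 from the mean of the other 3 was 3.05 over the 19 probe sets and -0.08 over all probe sets. By the brightest probe set of each gene, 8 of 9 genes lay over 2-fold above, Pax7 being the exception, against 6.05% of 18193 genes, and 11.3% of genes lay over 2-fold below. With readings under 100 raised to 100, 13 of the 19 probe sets still passed, against 3.06% of all probe sets. This is a comparison of 1 array with 3, singled out with earlier results of these data known, so no test was made.

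The comparison the study was designed for, Rhau KO against Control, gave no call for any of the 9 genes. By limma on log2 intensities over all probe sets, 0 of 19 members had an adjusted p under 0.05 (0.892 to 0.997), and 0.0% of all probe sets did. At an unadjusted p under 0.05 it was also 0 of 19, against 4.2% of all probe sets. The mean log2 intensity was lower in the arrays labelled Rhau KO on 17 of 19 probe sets, with a median log2 difference of -1.57 against 0.09 over all probe sets. The log2 difference was -5.14 for Myf6 (standard error 2.58), -1.61 for Sox6 (1.24) and -1.80 for Vgll2 (1.68). Both arrays labelled Rhau KO lay below both Controls on 4 of 19 probe sets, 1 each of Myod1, Eya1, Pax7 and Sox6, as they did on 14.0% of all probe sets. With 2 arrays a group, the smallest p of an exact permutation test is 0.333.

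Without Control replicate 1, the arrays labelled Rhau KO were lower than Control replicate 2 on 10 of 19 probe sets and higher on 9, with a median log2 difference of -0.04. No member passed an adjusted p under 0.05 in that limma fit (the lowest was 0.219), against 0.293% of all probe sets. An unadjusted p under 0.05 was reached by 3 of 19, Myod1, Vgll2 and 1 probe set of Six4, each higher in the arrays labelled Rhau KO, against 10.9% of all probe sets. The log2 difference was then 0.80 for Vgll2 (standard error 0.24) and 0.29 for Sox6 (0.20). For Myod1 it was 3.47, against a single Control reading of 4.26. With Control replicate 1 as the lone Control instead, the log2 difference was negative on 19 of 19 probe sets. It was -8.81 for Myf6, -4.39 for Vgll2 and -3.51 for Sox6. Control replicate 1 was singled out with earlier results known, so no p-value from this last fit is used as evidence. Its counts are given only where the dependence on the processing is described. In both fits the lone Control is assumed to vary like the other group.

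**Figure D3:**
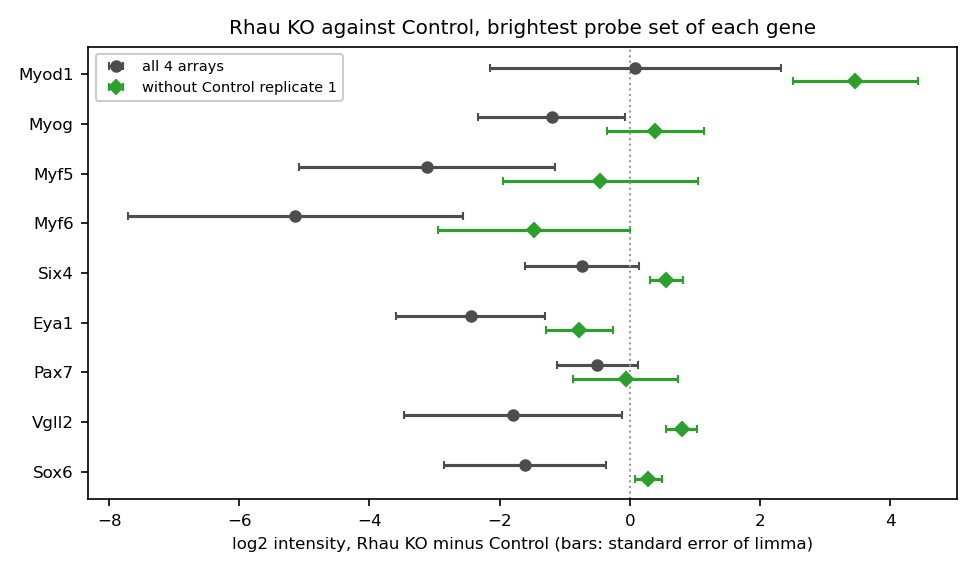
Difference in log2 intensity, Rhau KO minus Control, for the brightest probe set of each gene, with standard errors from limma, over all 4 arrays (grey circles) and without Control replicate 1 (green diamonds). Myf6 moves from -5.14 to -1.47, Vgll2 from -1.80 to 0.80 and Sox6 from -1.61 to 0.29.

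The partners and inhibitors of the myogenic factors differed less between Control replicate 1 and the rest. Each gene is given here by its brightest probe set. Of 7 E protein and MEF2 genes, 2 were over 2-fold above the other arrays and 0 below (median log2 difference 0.52, against -0.09 over all genes). Those were Mef2c, a muscle transcription factor that read 1527, 1145, 13581 and 1559 in the order Rhau KO replicates 1 and 2, Control replicates 1 and 2, and Mef2b, which was dim on every array. The E proteins Tcf4 and Tcf12 read 4030 and 3058 in Control replicate 1, within 2-fold of the other arrays. Of 8 inhibitors, 0 were above and 3 below, with a median of -1.08. Id1, which binds E proteins and keeps them from DNA, read 4573, 5057, 2080 and 5208. Id2 read 250 in Control replicate 1 and 524 or more in the others, and Msc, a repressor of the same helix-loop-helix class, read 22.7 against 149 to 195.

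Among 8 further genes of the network of Eya, Dach, Pax and Six4-related factors, 2 were over 2-fold above, 0 below and 6 within, with a median of 0.52. Eya4, a coactivator like Eya1, read 20.1, 2.70, 1835 and 49.96, and Six2 read 56.5, 66.2, 343 and 59.2. Six5 and Eya3 went the other way without passing 2-fold. Six5 read 190, 79.0, 40.2 and 128, and Eya3 read 584, 600, 313 and 579. Of 7 Vgll and TEAD genes, 0 passed in either direction, and Tead1 read 4239, 4296, 7703 and 4154. The other SoxD genes did not follow Sox6. Sox13 read 203, 264, 144 and 264, Sox5 was dim on all 4 arrays, and 0 of these 2 passed.

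Target genes of the myogenic factors were mixed by class. Of 9 genes of the neuromuscular synapse, 4 were over 2-fold above and 0 below, with a median of 1.35. Chrna1, the alpha subunit of the muscle acetylcholine receptor, read 6.54, 15.7, 837 and 14.5, and Chrne, the epsilon subunit of the adult receptor, read 5.77, 2.53, 227 and 7.26. Chrnb1 and Rapsn, the latter named after its values were seen, reached 990 and 557 in Control replicate 1, with highest readings elsewhere of 302 and 252. Musk read 160 there against at most 83.1 and did not pass 2-fold. Of 8 genes of fusion and differentiation, 2 were above and 0 below, Cdh15 at 453 against at most 108 and Mybph at 5007 against at most 12.1. Hes6 went the other way, at 484 in Control replicate 1 against 892 to 1213, but did not pass 2-fold. The fusion genes Mymk and Mymx, named after their values were seen, read at most 34.8 on any array.

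The widest gaps lay in contractile genes. Of 13 fast fibre genes, 11 were over 2-fold above and 0 below, with a median log2 difference of 9.93. Actn3 read 46180 and Myh2 36644 in Control replicate 1, and neither exceeded 34.8 elsewhere. Of 12 slow and cardiac contractile genes, 2 were above and 4 below. Tnni1, slow troponin I, read 14796 against at most 28.3, and Tnni3, cardiac troponin I, read 10.3 against 37838 to 39371. Tnnt1, slow troponin T, was the other gene above. Over these 9 lists, limma with all 4 arrays called 0 genes between Rhau KO and Control at an adjusted p under 0.05. It also called 0 of all 45037 probe sets, so this count is not particular to the lists.

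**Figure D4:**
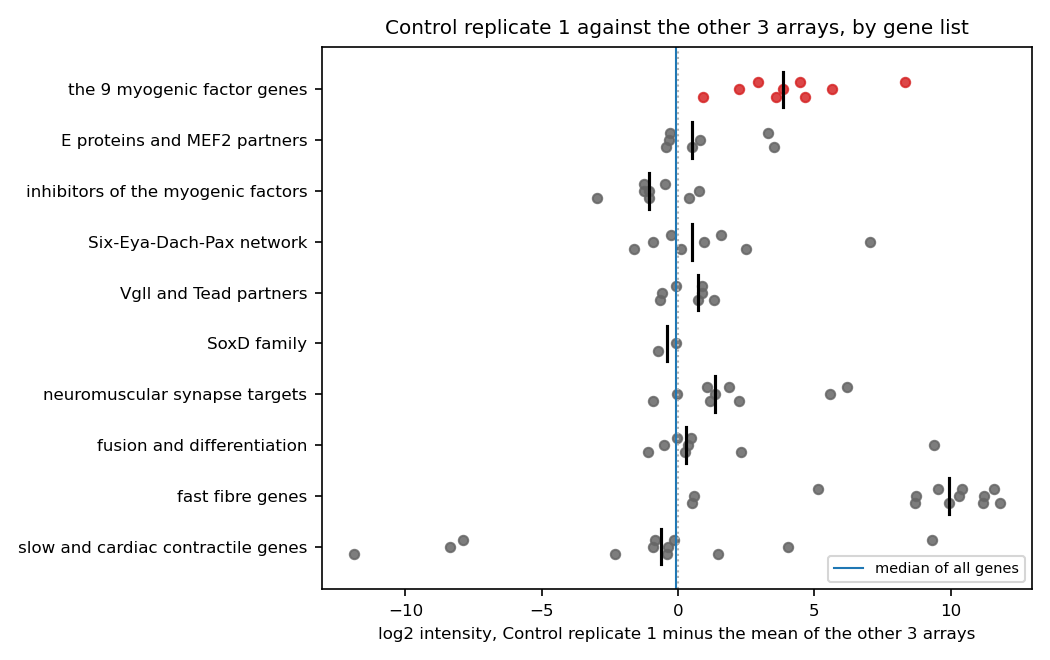
Log2 intensity in Control replicate 1 minus the mean log2 intensity of the other 3 arrays, 1 point per gene by its brightest probe set, with the 9 myogenic factor genes in red and 9 related lists in grey. Black bars mark the median of each list and the blue line the median of all genes (-0.09), and the medians are 3.86 for the myogenic factors, 9.93 for fast fibre genes and -1.08 for inhibitors.

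Cell type markers moved with the same array. Of 14 markers of fast skeletal fibres, 12 were over 2-fold above, and they summed to 512776 in Control replicate 1, against 56934 to 69642 elsewhere, where Ckm and Eno3, shared with heart, held most of it. Markers of ventricular cardiomyocytes were over 2-fold below in 11 of 13 cases, with a sum of 87624 against 389765 to 396254, and the other two, Myl2 and Myl3, are also made in slow skeletal fibres. Tbx20, a cardiac transcription factor, read 1.90 in this array labelled heart against 4316 or more in the others, and Tnni3 read 10.3. Mybpc3 (53.2), Ryr2 (18.1), Nkx2-5 (64.8), Gata4 (61.6) and Tbx5 (9.61) were dim in Control replicate 1 as well. The remaining markers below the other arrays were not dim, Myh6 reading 171, Pln 175, Tnnt2 248 and Actc1, cardiac actin, 12364. Of 8 satellite cell markers, 4 were over 2-fold above (Cdh15, Chodl, Met and Megf10) and 0 below, with a sum of 4364 against 2689 to 2798. Of 5 endothelial markers, 4 were below (3670 against 8745 to 9393). Fibroblast markers summed to 47710 against 39528 to 49737, with 2 of 6 above and 1 below, and 0 of 4 macrophage markers passed (2678 against 4183 to 4483). Of 4 Schwann cell markers 2 were measured and 0 passed (303 against 144 to 206). The part of these cell types in the readings of the 9 genes was not tested, and in bulk RNA fewer cells of a type and less RNA per cell cannot be told apart.

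Genes whose pattern over the 4 arrays was most like that of a member were found by the distance between centred log2 intensities, with readings under 100 raised to 100, over 18193 genes. For Myf6 they were Ankrd2 (distance 0.013 on the log2 scale), Mybph (0.129) and Ryr1 (0.131). Ankrd2, an ankyrin repeat protein of muscle, read 17.2, 16.5, 5496 and 17.2, dim like Myf6 on all arrays but Control replicate 1. For Vgll2 they were Capn3 (0.318), Jph1 (0.520) and Mllt3 (0.521), and for Sox6 Gpt2 (0.115), Slc7a2 (0.223) and Ttll7 (0.262). For Six4 they were Tob1 (0.087), Sema3c (0.121) and Fhl1 (0.145), and for Eya1 Amhr2 (0.325), 2310065F04Rik (0.329) and Kera (0.329). Capn3, a muscle calpain, read 143, 159, 3930 and 86.0. Myf6, Myod1, Myog and Myf5 were dim in all arrays but Control replicate 1, so likeness to them rests on that 1 reading. The nearest genes were Klf5, Myl10 and Fads6 for Myod1, Relt, Sctr and Usp45 for Myog, and 3300002P13Rik, Rfx2 and 8430429K09Rik for Myf5. For Pax7, which never reached 100, no like gene was sought. With 4 arrays, of which 1 stands apart, many genes share such a pattern.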

How the data were processed

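Total RNA was labelled with a 3′ IVT kit and hybridised to Affymetrix mouse genome arrays, and the authors normalized the scans by the MAS 5.0 algorithm in GeneSpring. The deposited values are linear intensities, and no detection call was used. The arrays number 2 per group, which limits the precision. Of 45101 probe sets, 64 controls were left out. Gene names of the rest came from the platform annotation (34945 probe sets with 1 symbol, 932 with several, 9160 with none). Groups followed the labels. Rhau KO minus Control was fitted on log2 intensities in R 4.3.3 with limma 3.58.1 (lmFit, then eBayes with a trend), with Benjamini-Hochberg adjustment over all 45037 probe sets, and the code was tested on simulated data. Control replicate 1 was set against the other 3 arrays without a test, at a fold of 2 beyond their highest or lowest reading.

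The members, 9 gene lists and 7 marker lists were chosen with earlier results of these data known. Named were every member, up to 4 genes per list with the widest gap between Control replicate 1 and the rest among those reaching 100 on an array, and the 3 genes most like each member. Mef2b, Rapsn, Mymk, Mymx, Tnnt1, Sox5, Ckm, Eno3, Actc1, Myl2 and Myl3 lay outside this rule and were named after their values were seen. The alternatives tried were quantile normalization, median centring, no trend in eBayes, a pseudocount of 32, a floor of 100, a fold of 4, the brighter probe sets alone, 1 value per gene, the methods' t-test, a block for replicate number, and each array left out in turn. Python 3.11.15, numpy 2.4.6, pandas 2.3.3 and matplotlib 3.10.9 were used.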

Additional observations from a re-analysis of the deposited data

How the results depend on the processing

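Rhau KO against Control gave 0 probe sets at an adjusted p under 0.05 by limma under each setting with all 4 arrays, and by the methods' t-test (1892 and 2374 at an unadjusted p under 0.05, and 785 to 813 where fewer features were tested). Leaving out 1 array gave 0 to 6286, 0 without either Rhau KO array, 132 without Control replicate 1 and 6286 without Control replicate 2. Of the 19 member probe sets, 0 had an unadjusted p under 0.05, 0 to 15 did when 1 array was left out (15 without Control replicate 2, where 12315 of all 45037 probe sets did), and 3 did with a replicate block (1758 of all). Same-numbered arrays did not deviate together (r = 0.003 over probe sets), so the numbers were not taken to pair them. The counts without Control replicate 2 cannot decide between Rhau KO and Control. In that fit the lone Control is Control replicate 1, singled out with earlier results known. These counts show only how far the outcome depends on which arrays are kept, and no gene is called from them. Median centring moved the median of all probe sets by -0.12 on the log2 scale. The log2 difference of Myod1, 0.083 with all arrays, turned to -0.029 with quantile normalization, -0.041 with median centring, -0.76 with a pseudocount of 32 and -0.945 when the probe sets of a gene were averaged. Leaving out 1 array gave -3.30 to 3.47 for Myod1, -2.79 to 0.40 for Myog, -2.03 to 0.56 for Six4, -4.39 to 0.80 for Vgll2 and -3.51 to 0.29 for Sox6, the higher end being the value without Control replicate 1. The cause of these turns was not tested.

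Over 2-fold above the other 3 arrays in Control replicate 1 were 17 of 19 member probe sets, and 11 over 4-fold. By the brightest probe set per gene it was 8 of 9. Over all probe sets, 2710 were over 2-fold above, 1379 with readings raised to 100, 1497 with a pseudocount of 32, 870 over 4-fold, 1101 of 18193 genes, and 7301 against Control replicate 2 alone. Each member kept a higher reading in Control replicate 1 under these settings, except Pax7, whose difference was 0 with readings raised to 100. Readings under 100 on 3 or more arrays limit what can be said of Myod1, Myog, Myf5, Myf6 and Pax7.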
